A study of Mus musculus with 16 samples.

Results

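The genes described here are the mouse genes whose symbol starts with Cfap, Dnah, Dnai, Drc, Rsph or Spag followed by a digit, a name pattern that gathers most parts of the motile cilium axoneme. The kidney count table held 92 such symbols, and 65 of them had at least 100 estimated counts summed over the 16 libraries. These 65 genes, among 25408 genes that passed the same minimum and 57186 genes in the table, were 31 Cfap, 15 Dnah, 8 Spag, 6 Rsph, 4 Dnai and 1 Drc genes. The rule itself used names and total counts only. It was set with earlier results of these data known, and Cfap52 is a gene that the paper names. The other 27 symbols fell below the minimum, and 10 of them had 0 counts in all libraries, including Cfap221, Drc7, Cfap161, Cfap58, Spag11a and Spag11b. Just outside the minimum lay Drc1 with 85 counts and Cfap77 with 80, and just inside lay Dnai1 with 103 and Cfap91 with 114.

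The axoneme is the microtubule core of a cilium. In motile cilia and sperm tails, outer and inner dynein arms slide neighbouring doublet microtubules past each other, radial spokes and a central pair of microtubules control that sliding, the nexin-dynein regulatory complex links the doublets, and microtubule inner proteins line the inside of each doublet. Tubule cells of the kidney carry a single non-motile primary cilium, which lacks dynein arms, spokes and a central pair. Some genes caught by the name pattern do other work, such as Spag9, a scaffold that joins kinase signalling to motor proteins, and Spag5, a protein of the mitotic spindle.

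RNA was sequenced from kidneys of 16 male C57BL/6J mice, 4 in each of 4 labelled groups, at 16 weeks of age by the study's methods. All mice were homozygous for the Elmo1 H allele (Elmo1H/H). The non-diabetic groups, untreated (ND_C) and B12-treated (ND_B12), were Ins2+/+, and the diabetic groups, untreated (D_C) and B12-treated (D_B12), were Ins2Akita/+, in which misfolded proinsulin damages the beta cells of the pancreas. Treated mice drank water that supplied B12 at 10 mg/kg per day from 8 weeks of age, for 8 weeks by the methods and 16 weeks by the labels. No group without the Elmo1 H allele was analysed here, and control mice carried it too. Libraries held 65271308 to 91771136 counts. A date opens each library name, its meaning is not stated, and no date held both D_C and D_B12, both ND_C and D_C, or both ND_B12 and D_B12 libraries. Date therefore cannot be told apart from B12 treatment in diabetic mice or from diabetes in either comparison. The only dates with libraries of more than 1 group joined ND_C replicate 4 to ND_B12 replicate 1, and ND_B12 replicates 2, 3 and 4 to D_C replicate 1.

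The labels themselves carried a conflict. The supplement of the paper tabulates group means, and each was compared, over 181 genes, with the mean of every one of the 1820 sets of 4 libraries. For each tabulated group 1 set lay within a median absolute log2 difference of 0.000263, whereas the next closest sets lay at 0.0343 to 0.0522 and the labelled sets at up to 0.303. The set closest to the tabulated D_C was the 4 libraries labelled D_B12. The set closest to the tabulated D_B12 was ND_B12 replicate 4 with D_C replicates 2, 3 and 4. The set closest to the tabulated ND_C was ND_C replicates 1, 2 and 4 with ND_B12 replicate 1, and that closest to ND_B12 was ND_C replicate 3, ND_B12 replicates 2 and 3 and D_C replicate 1. By this comparison 5 libraries kept their labelled group, 11 did not, and 2 of those, D_C replicate 1 and ND_B12 replicate 4, changed between non-diabetic and diabetic. Which source is right cannot be told from the files. Every group, direction and test below follows the deposited labels. Some results are also given without those 2 libraries, which does not cover the conflict over the other 9. A direction given here may change if the labels are wrong. For Cfap52 and Rsph9 the values of the tabulated sets are given below.

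Most axoneme genes were weakly expressed in the kidney. In FPKM, taken here as counts per kb of merged exon scaled to the total count of the library, the median of the 65 genes was 0.177, against 1.04 over the 25261 tested genes with a known length. Of the 65, 13 exceeded 1 on this scale, against 50.3% of all tested genes, and 25 lay below 0.1. Merged exon length counts rare long isoforms and lowers these levels. With each transcript's own length, 20 members exceeded 1, and the medians were 0.285 for members and 1.64 for all genes. In bulk kidney, fewer expressing cells and less RNA per cell cannot be told apart.

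Levels per kb differed between roles. Outer dynein arm genes were the lowest, with a median of 0.0329 over 7 genes. The highest of them was Dnah5, a heavy chain, at 0.177 (0.104 to 0.268 over the 16 libraries), followed by Dnah17 at 0.102. The intermediate chains Dnai1 and Dnai2 stood near the count minimum, at 0.0145 and 0.0201. The 15 inner dynein arm genes had a median of 0.0860 and were led by Dnah7b at 0.995 and Dnai4 at 0.346. The 10 central pair genes had a median of 0.0997, with Cfap69 at 0.628 and Cfap65 at 0.254 on top. The only nexin-dynein member, Drc3, stood at 0.212.

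Genes of other roles were higher on the same per-kb scale. The 9 genes of the radial spoke and its base had a median of 0.183, but the spoke stalk genes Rsph3b and Rsph3a reached 10.8 and 10.2. The 9 microtubule inner protein genes had a median of 0.601, led by Cfap68 at 3.95 and Cfap20 at 3.03. The remaining 9 Cfap genes had the highest median, 1.73, with Cfap97 at 3.88 and Cfap418, a gene tied to photoreceptor disease, at 2.34. Of the 5 Spag genes that work outside the axoneme, Spag9 at 17.3 and Spag7 at 15.0 were the highest of all 65. Ranges over libraries were narrow at this end, 15.4 to 19.4 for Spag9 and 9.21 to 11.8 for Rsph3b.

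**Figure D1:**
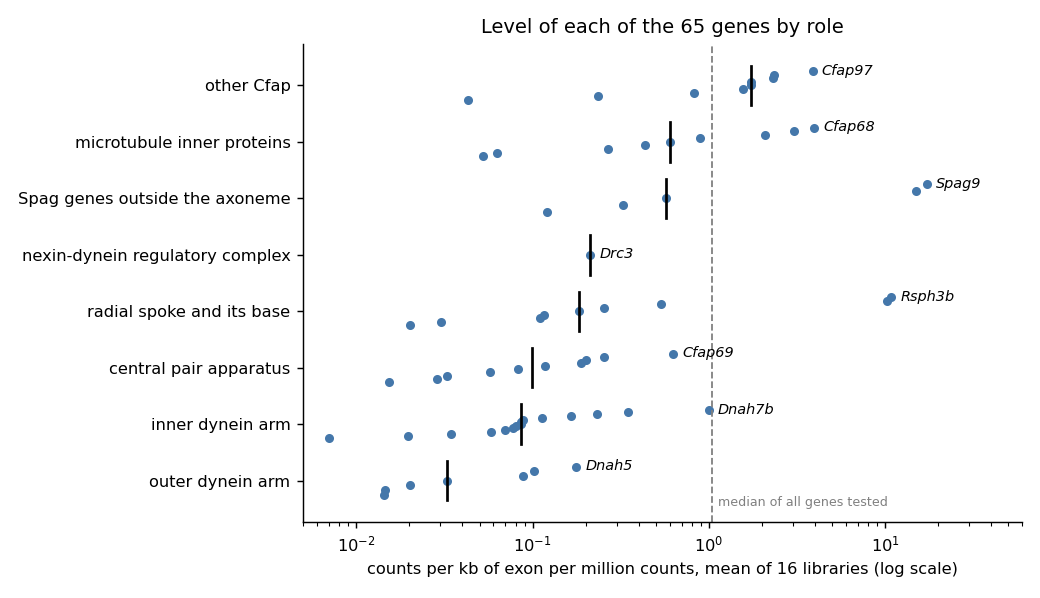
Each point is 1 of the 65 genes, placed by its mean level over 16 libraries in FPKM (log axis), in rows by role; black bars are role medians and the dashed line is the median of all genes tested. Outer dynein arm genes lie lowest, with a median of 0.0329, and the points furthest to the right are Spag9, Spag7, Rsph3b and Rsph3a.

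The order within a role depended on the length used. With each transcript's own length, Cfap36 at 7.51 and Cfap410 at 5.65 stood above Cfap97 at 5.06 and Cfap418 at 3.99. On that scale Dnah11 at 0.175 stood above Dnah17 at 0.118. The level of Rsph9 was 0.535 per kb of merged exon and 4.50 with transcript lengths.

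Low counts widened the spread between libraries. The 24 genes with fewer than 1000 counts in all had a median coefficient of variation within groups of 0.418, against 0.0674 for the 14 genes above 10000. A count of 0 occurred in at least 1 library for 12 genes, among them Dnai1, Dnai2, Cfap91 and Rsph1. Differences in these genes were therefore detectable only when large.

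Near-identical copies share reads, and the split between them is uncertain. Per kb, Dnah7b at 0.995 stood above its copies Dnah7c at 0.233 and Dnah7a at 0.0809, and the ranges over libraries, 0.693 to 1.37, 0.157 to 0.293 and 0.0513 to 0.103, did not meet. Spag6l, at 0.117, exceeded Spag6, at 0.0286, and these 2 ranges also did not meet. The levels of Rsph3b and Rsph3a, 10.8 and 10.2, had overlapping ranges.

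The transcript table showed which RNA forms carried these counts. The median member had 92.3% of its counts on protein-coding transcripts, and for 48 of 65 genes the leading transcript held the longest coding sequence. In 7 genes the leading transcript was of another class. Counts of Dnah14 fell mostly (72.9%) on a retained-intron transcript of 2 exons, Dnah14-208, and an exon of Dnah14 overlaps Lbr on the other strand. For Dnah3 and Cfap100, the leading transcripts were of the nonsense-mediated decay class, with 87.4% and 91.8% of counts. Cfap53 gave 83.2% to that class as well, Spag4 gave 66.2% to a retained-intron form, and Dnai7 had 2.06% of its counts on protein-coding transcripts. For these genes a gene-level count therefore says little about the full-length message. A gene on the other strand overlaps 55 of the 65. The methods derive strand from intron motifs and do not say whether libraries or counts kept it, so unspliced reads of such pairs may not be separable.

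**Figure D2:**
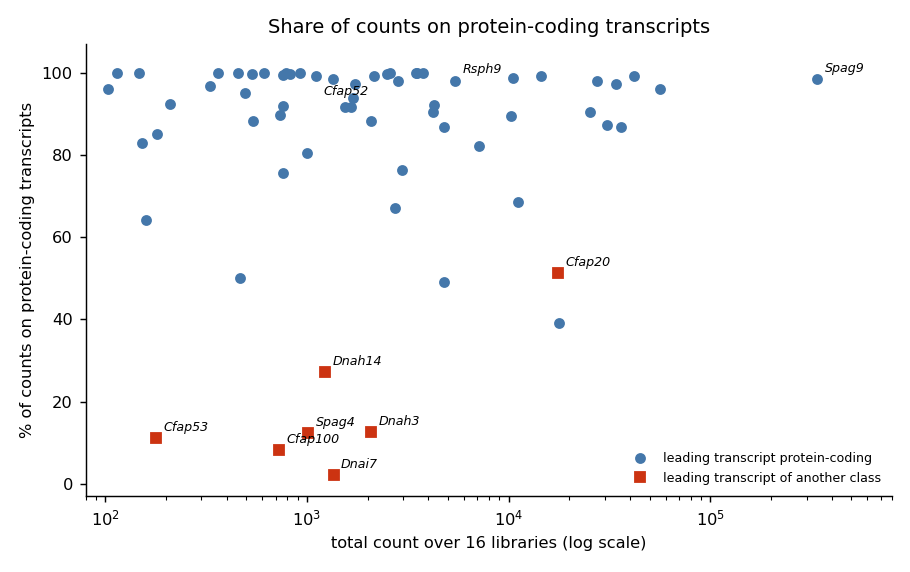
Each point is 1 of the 65 genes, with its total count over 16 libraries on a log axis against the percentage of its counts on protein-coding transcripts; red squares mark the 7 genes whose leading transcript is of another class. Dnai7, Cfap100, Cfap53, Spag4, Dnah3 and Dnah14 lie near the bottom, while Cfap52, Rsph9 and Spag9 lie near the top.

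GTTGCC was taken here as the core of the sites bound by RFX factors, which control many ciliary genes. Promoter windows from RefSeq (build GRCm38.p6, 250 bases before to 50 after each transcription start) were matched for 43 of the 65 genes, as 47 windows. The core, searched on both strands, occurred in 17 of 47 windows (36.2%), against 12.5% of all 32851 windows. The forkhead motif GTAAACA, of the kind bound by FOXJ1, was in 3 of 47 (6.38%), against 3.65%. Such a match describes letters in a window and does not show binding. Variants of these letters were not searched, so a window without a match may still hold a site. Below is Cfap298, a dynein arm assembly gene with the most matches, followed by Dnah7b, the most abundant dynein heavy chain per kb. The last is Cfap52, the gene with the largest called change, whose window held neither motif in its exact letters. Capitals mark GTTGCC or its reverse complement. The windows lie at chr16:90934800-90935099 (minus strand), chr1:46066603-46066902 (plus) and chr11:67965593-67965892 (minus).
Cfap298: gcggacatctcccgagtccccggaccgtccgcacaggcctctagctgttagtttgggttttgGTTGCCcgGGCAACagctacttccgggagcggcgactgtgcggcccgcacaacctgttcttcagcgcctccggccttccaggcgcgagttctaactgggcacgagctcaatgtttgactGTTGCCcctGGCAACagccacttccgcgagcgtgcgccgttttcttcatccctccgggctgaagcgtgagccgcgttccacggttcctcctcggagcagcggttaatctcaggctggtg
Dnah7b: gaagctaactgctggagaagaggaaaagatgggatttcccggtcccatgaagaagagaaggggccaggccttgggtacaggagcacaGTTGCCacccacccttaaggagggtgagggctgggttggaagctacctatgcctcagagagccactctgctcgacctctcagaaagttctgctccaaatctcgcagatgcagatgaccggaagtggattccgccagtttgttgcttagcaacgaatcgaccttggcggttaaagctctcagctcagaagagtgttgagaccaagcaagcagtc
Cfap52: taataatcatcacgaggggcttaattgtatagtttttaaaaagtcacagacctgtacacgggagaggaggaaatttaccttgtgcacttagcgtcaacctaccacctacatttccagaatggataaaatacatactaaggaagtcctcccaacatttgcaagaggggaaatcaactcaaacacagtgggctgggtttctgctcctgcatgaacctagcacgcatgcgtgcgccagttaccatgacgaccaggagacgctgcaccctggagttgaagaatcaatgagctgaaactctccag
The Cfap298 window held 4 matches, as 2 facing pairs. In the Dnah7b window the match began 163 bases before the start.

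The median change of the 65 genes lay near 0 in each comparison. The median log2 fold change of members was -0.01 for diabetes in untreated mice, 0.01 for diabetes in B12-treated mice, -0.02 for B12 in diabetic mice and 0.01 for B12 in non-diabetic mice. The medians over all genes tested lay within 0.01 of 0. Between 30 and 34 of the 65 genes had a positive fold change in each of these 4 comparisons. Members that combined an unadjusted p below 0.05 with an absolute log2 fold change of 0.5 or more, the thresholds of the study's volcano plots, numbered 4 for diabetes in untreated mice (7.64% of all genes did), 8 for diabetes in B12-treated mice (7.47%), 3 for B12 in diabetic mice (5.58%), 1 for B12 in non-diabetic mice (3.19%) and 5 for the interaction (9.15%). At an unadjusted p below 0.05 alone there were 6 members for diabetes in untreated mice, against 18.6% of all genes, and 11 in B12-treated mice, against 17.0%. The first 2 comparisons share no library, but each of them shares libraries with both B12 comparisons.

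**Figure D3:**
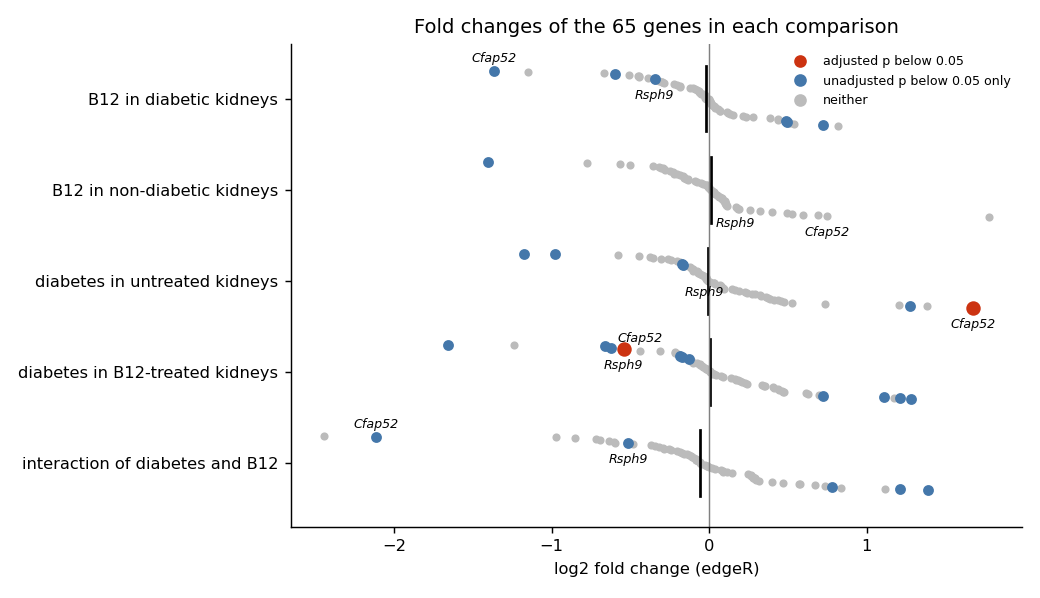
Log2 fold changes of the 65 genes in the 5 comparisons (edgeR), 1 point per gene sorted by value, with black bars at the medians; red marks an adjusted p below 0.05 and blue an unadjusted p below 0.05 only. The medians sit near 0 in every row, and the only red points are Cfap52 for diabetes in untreated kidneys (1.68) and Rsph9 for diabetes in B12-treated kidneys (-0.54).

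Diabetes in untreated kidneys was read from D_C against ND_C. Of the 65 members, 1 passed an adjusted p of 0.05 in edgeR, against 1.66% of all genes tested, and this was Cfap52, a microtubule inner protein of the doublets. Its normalized counts were 43.7, 37.8, 26.1 and 40.3 in ND_C and 138.9, 109.9, 92.4 and 134.0 in D_C. The lowest diabetic library stood above the highest non-diabetic one. The difference on the log2 scale was 1.68 (SE 0.37, n = 4 and 4, adjusted p = 0.0408 by edgeR), or 3.20-fold higher. Over all alternatives the adjusted p ranged from 0.000963 with DESeq2 to 0.119 without ND_C replicate 3, and without D_C replicate 1 and ND_B12 replicate 4 the change was 1.59 (adjusted p = 0.0197 in edgeR). The call was lost with no filter, with the label date, and when any ND_C library or D_C replicate 2, 3 or 4 was left out singly, with fold changes of 1.55 to 1.78 over the libraries left out.

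Cfap52 (ENSMUSG00000020904) lies on the minus strand of GRCm39 at chr11:67815632-67857270, and its exons overlap those of Stx8 and 9130017K11Rik on the other strand. Neither neighbour showed a similar change in this comparison. Stx8 averaged 1225 normalized counts in ND_C and 1260 in D_C, and 9130017K11Rik 94.9 and 94.3. For B12 in diabetic kidneys Stx8 had a log2 fold change of -0.12 (SE 0.06, adjusted p = 0.413 in edgeR). There 9130017K11Rik had 0.17 (SE 0.14, adjusted p = 0.654 in edgeR). Of the Cfap52 counts, 96.9% were on the full-length transcript Cfap52-201, with 14 exons. Among the kidney cell markers, Aqp2, the water channel of the collecting duct, passed the test in the same comparison. It averaged 5921 normalized counts in ND_C and 19109 in D_C (log2 fold change 1.69, SE 0.39, adjusted p = 0.0436 in edgeR). No other of the 11 kidney markers passed in edgeR. Of the 11, 6 had a positive and 5 a negative fold change, with a median of 0.08. In edgeR 5 had an unadjusted p below 0.05, against 18.6% of all genes. Whether kidney cell content bears on Cfap52 was not tested.

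The groups did not overlap for 4 members in this comparison (6.15% of 65, against 9.44% of all genes), namely Cfap52, Spag5 and Dnah6 higher and Rsph3a lower. Dnah6 had only 147 counts over the 16 libraries. Spag5 had 186.7, 136.2, 99.7 and 193.9 normalized counts in ND_C and 209.2, 514.9, 322.6 and 446.7 in D_C. D_C replicate 1 was close to the ND_C libraries and the other 3 stood well above them. The log2 fold change of 1.27 (SE 0.34) missed the threshold in edgeR with an adjusted p of 0.0645 and passed it with DESeq2 (adjusted p = 0.00420). It was 1.46 (adjusted p = 0.0222 in edgeR, where 6.10% of all genes passed) without D_C replicate 1. That library stood closest to ND_C, so leaving it out favours a call and is no separate test. No other single library left out gave a call (adjusted p up to 0.170 in edgeR). With the label date as a covariate the adjusted p was 0.266 in edgeR. Of 12 marker genes of dividing cells, all detected, 5 had a positive fold change. In edgeR none of the 12 had a p below 0.05, adjusted or not, against 18.6% of all genes unadjusted. The summed normalized counts of these markers ran from 1398 to 1591 in ND_C and from 907 to 1697 in D_C.

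The spoke stalk genes Rsph3a and Rsph3b were slightly lower in diabetes. Rsph3a had 2748, 2822, 2697 and 2755 normalized counts in ND_C and 2423, 2295, 2469 and 2594 in D_C, with no overlap. The fitted log2 difference was -0.17 (SE 0.05, adjusted p = 0.102 in edgeR), and -0.17 for Rsph3b (SE 0.06, adjusted p = 0.145 in edgeR). Neither passed in edgeR, and Rsph3a alone passed with DESeq2 (adjusted p = 0.0450). Since the copies share reads, they are not separate observations.

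**Figure D4:**
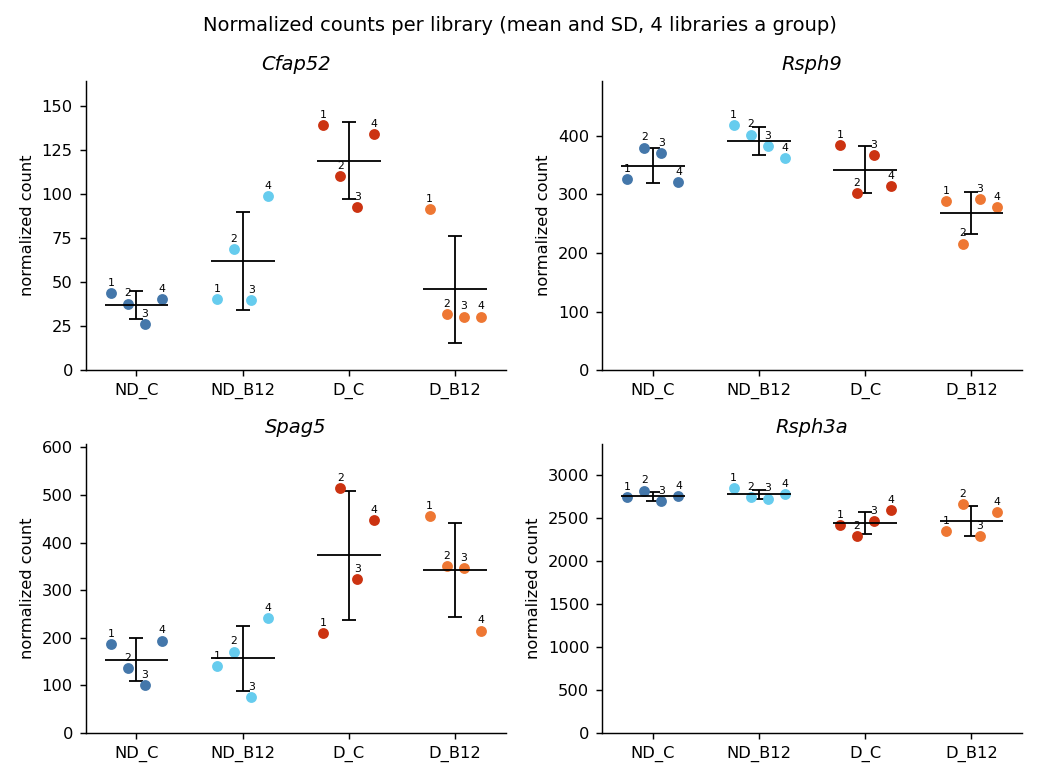
Normalized counts of Cfap52, Rsph9, Spag5 and Rsph3a in each of the 16 libraries by labelled group, with replicate numbers over the points; lines and bars are the mean and SD of 4 libraries. Cfap52 is high in all D_C libraries (92.4 to 138.9), in ND_B12 replicate 4 (98.6) and in D_B12 replicate 1 (91.3).

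Diabetes in B12-treated kidneys was read from D_B12 against ND_B12. Again 1 member of 65 passed in edgeR (0.823% of all genes did), and this was Rsph9, a component of the radial spoke head. Its normalized counts were 418.2, 402.0, 383.0 and 361.7 in ND_B12 and 288.9, 215.9, 292.4 and 278.2 in D_B12. All D_B12 libraries lay below all ND_B12 libraries. The fitted log2 difference was -0.54 (SE 0.12, adjusted p = 0.0435 in edgeR), or 1.46-fold lower, and without D_C replicate 1 and ND_B12 replicate 4 it was -0.58 (adjusted p = 0.0257 in edgeR). The smallest adjusted p was 0.00159, in DESeq2, and the largest 0.342, in edgeR once the label date was a covariate. The call was lost with the replicate number as a block, with upper-quartile scaling, with no filter, with the 2 groups fitted alone, and without any D_B12 library or ND_B12 replicate 1, 2 or 3. Rsph9 (ENSMUSG00000023966, GRCm39 chr17:46432961-46455178, minus strand) overlaps exons of Mrps18a, whose log2 fold change was 0.05 (adjusted p = 0.788 in edgeR).

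In untreated mice Rsph9 had 325.4, 379.7, 370.4 and 320.5 normalized counts in ND_C and 384.6, 302.6, 367.0 and 314.4 in D_C, which overlap fully. The difference between the 2 effects of diabetes, tested as the interaction, was -0.52 for Rsph9 (SE 0.16, adjusted p = 0.144 in edgeR) and did not pass. Another spoke gene outside the name pattern, Ropn1l, passed in the same comparison as Rsph9. It had 432.3, 434.8, 365.6 and 337.5 normalized counts in ND_B12 and 234.7, 220.4, 251.0 and 234.4 in D_B12, and the fitted log2 difference was -0.74 (SE 0.13, adjusted p = 0.0290 in edgeR). The groups of Ropn1l did not overlap. In that comparison 3 of the 9 members of the radial spoke and its base had a positive and 6 a negative fold change.

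Non-overlapping groups occurred for 8 members in B12-treated mice (12.3%, against 11.7% of all genes). Rsph9, Rsph3a, Rsph3b, Cfap68 and Dnah2 were lower in D_B12, and Dnah10, Dnah8 and Cfap47 were higher. Only Rsph9 passed in edgeR. Rsph3a had 2855, 2748, 2728 and 2781 normalized counts in ND_B12 and 2353, 2663, 2293 and 2570 in D_B12, and the fitted log2 difference was -0.17 (SE 0.05, adjusted p = 0.119 in edgeR). Spag5 reached 1.11 (SE 0.34, adjusted p = 0.109 in edgeR), from 140.8, 170.7, 75.9 and 240.8 to 455.4, 350.1, 346.7 and 215.0. The highest ND_B12 library, replicate 4, stood above the lowest D_B12 library, also replicate 4. With that ND_B12 library and D_C replicate 1 left out the change was 1.40 (adjusted p = 0.0316 in edgeR, where 2.69% of all genes passed). Leaving out a library that makes the groups overlap favours a call and is no separate test. With single libraries left out the adjusted p was 0.0666 to 0.248 in edgeR, and with the label date 0.339. With all libraries Spag5 passed in DESeq2 (adjusted p = 0.0194). Here all 12 dividing-cell markers had positive fold changes (50.5% of all genes did), with a median of 0.77. In edgeR 8 of them had an unadjusted p below 0.05, against 17.0% of all genes, and none passed adjusted. The summed counts of these markers were 890 to 1424 in ND_B12 and 1665 to 2271 in D_B12. The part of dividing cells in the Spag5 values was not tested. Cfap157, a sperm flagellum gene, ran from 19.9 to 36.7 normalized counts in ND_B12 and from 36.3 to 63.2 in D_B12, which just overlap, and its log2 difference was 0.72 (SE 0.28, adjusted p = 0.196 in edgeR).

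B12 in diabetic kidneys was read from D_B12 against D_C. No member passed an adjusted p of 0.05 in edgeR, and neither did any other gene tested (0.0%). At an unadjusted p below 0.05 edgeR gave 6 members, 9.23% of 65 against 13.6% of all genes, and DESeq2 called 1 member, Cfap52, and 2.68% of all genes. The normalized counts of Cfap52 were 138.9, 109.9, 92.4 and 134.0 in D_C and 91.3, 31.7, 30.3 and 30.4 in D_B12. The groups did not overlap, but D_B12 replicate 1 lay just below the lowest D_C library while the other 3 lay in the range of ND_C. The fitted log2 difference was -1.37 (SE 0.36, adjusted p = 0.128 in edgeR), or 2.58-fold lower, and the exact permutation p was 0.0286, the smallest that 4 against 4 allows. The smallest adjusted p was 0.0152, in DESeq2, and the largest 0.561, in edgeR once the label date was a covariate. Without D_B12 replicate 1 the change was -1.93 (adjusted p = 0.0351 in edgeR, where 0.161% of all genes passed). That library lay nearest to D_C, so leaving it out favours a call and is no separate test. No other single library left out gave a call (adjusted p up to 0.291 in edgeR). Without D_C replicate 1 and ND_B12 replicate 4 the change was -1.28 (adjusted p = 0.0999 in edgeR).

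The directions for Cfap52 rest on the labels. The set of libraries closest to the tabulated D_C had 91.3, 31.7, 30.3 and 30.4 normalized counts, and that closest to the tabulated D_B12 had 98.6, 109.9, 92.4 and 134.0, so there the B12 set is the higher. The set closest to the tabulated ND_C had 43.7, 37.8, 40.3 and 40.4, which overlaps the tabulated D_C set. For Rsph9 the set closest to the tabulated ND_B12 had 370.4, 402.0, 383.0 and 384.6, and that closest to the tabulated D_B12 had 361.7, 302.6, 367.0 and 314.4, again lower without overlap. No test was run on these sets.

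Groups did not overlap for 5 members (7.69%, against 6.58% of all genes), with Cfap52, Rsph9 and Cfap53 lower and Spag8 and Cfap157 higher under B12. Cfap53 had only 179 counts over the 16 libraries, 83.2% of them on a transcript of the nonsense-mediated decay class. Rsph9 gave a log2 fold change of -0.35 (SE 0.12, adjusted p = 0.206 in edgeR). Spag8, a microtubule inner protein, had 55.9, 46.0, 55.1 and 43.0 normalized counts in D_C and 70.2, 65.3, 75.4 and 69.2 in D_B12. On the log2 scale this was a difference of 0.49 (SE 0.18, adjusted p = 0.246 in edgeR). Cfap157 had 23.7, 27.2, 27.5 and 36.1 in D_C, and its D_B12 libraries began just above, at 36.3. On the log2 scale this was a difference of 0.72 (SE 0.27, adjusted p = 0.257 in edgeR). Neither difference passed in edgeR or DESeq2.

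B12 in non-diabetic kidneys was read from ND_B12 against ND_C. No member and no other gene (0.0%) passed in edgeR, 1 member had an unadjusted p below 0.05 (7.62% of all genes did), and DESeq2 called no member and 0.0236% of all genes. For no member did the groups separate (4.81% of all genes). Cfap52 had 40.4, 68.5, 39.8 and 98.6 normalized counts in ND_B12, which overlap ND_C, and the log2 difference was 0.75 (SE 0.37, adjusted p = 0.678 in edgeR). On the single label date with libraries of both groups, ND_C replicate 4 had 40.3 and ND_B12 replicate 1 had 40.4. The inner arm heavy chain Dnah10 had the smallest unadjusted p. It had 93.9, 60.6, 27.2 and 28.8 in ND_C and 26.2, 0.0, 19.9 and 32.9 in ND_B12, where replicate 2 is at 0, and the difference on the log2 scale was -1.40 (SE 0.59, adjusted p = 0.637 in edgeR). Dnah8, an outer arm heavy chain, gave -0.77 (SE 0.39, adjusted p = 0.680 in edgeR), and Cfap68 gave 0.11 (SE 0.06, adjusted p = 0.671 in edgeR).

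The interaction asked whether the effect of B12 differed between diabetic and non-diabetic mice. No member and no other gene (0.0%) passed in edgeR. At an unadjusted p below 0.05 there were 5 members, against 16.1% of all genes, and DESeq2 called 1, Cfap52, and 3.63% of all genes. For Cfap52 the interaction was -2.12 (SE 0.52, adjusted p = 0.0840 in edgeR), from a B12 difference of 0.75 in non-diabetic and -1.37 in diabetic kidneys. It was -1.71 (adjusted p = 0.143 in edgeR) without D_C replicate 1 and ND_B12 replicate 4. Spag1, a dynein arm assembly factor, gave 0.78 (SE 0.27, adjusted p = 0.175 in edgeR) and Cfap74, a central pair protein, gave 1.39 (SE 0.56, adjusted p = 0.233 in edgeR). Spag1 had 288.8, 290.4, 202.6 and 222.5 normalized counts in D_C and 472.5, 247.6, 320.0 and 375.3 in D_B12, and these groups overlap.

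Dnah9, an outer arm heavy chain, was picked out after its values were seen. It had 66.1, 90.5, 77.0 and 53.7 normalized counts in ND_C and 111.4, 89.3, 100.7 and 24.2 in ND_B12. In the diabetic groups it had 73.7, 11.3, 17.8 and 23.2 in D_C and 30.1, 28.1, 11.0 and 34.0 in D_B12. Apart from ND_B12 replicate 4 and D_C replicate 1, every non-diabetic library stood above every diabetic one. The log2 fold change for diabetes was -1.18 (SE 0.52, adjusted p = 0.234 in edgeR) in untreated and -1.66 (SE 0.53, adjusted p = 0.127 in edgeR) in B12-treated kidneys. With DESeq2 the latter, -1.66, passed (adjusted p = 0.0363). In the fit without those 2 libraries, added after seeing the data, 4 members passed for diabetes in untreated kidneys (8.21% of all genes did) and 4 in B12-treated kidneys (2.69%). In untreated kidneys these were Dnah9, Spag5, Cfap52 and the inner arm gene Dnai4 (-0.49, adjusted p = 0.0319 in edgeR), and in B12-treated kidneys Dnah9, Dnah5 (-0.87, adjusted p = 0.0245 in edgeR), Rsph9 and Spag5. Since Dnah9 was picked for the place of those libraries, its call there is no separate test.

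Split by role, fold changes of either sign occurred in the larger classes of axoneme part. For diabetes in untreated kidneys, 4 of 7 outer arm, 8 of 15 inner arm, 6 of 10 central pair and 4 of 9 radial spoke genes had positive fold changes. For B12 in diabetic kidneys these counts were 3 of 7, 6 of 15, 5 of 10 and 5 of 9. The most abundant member, Spag9, had log2 fold changes between -0.02 and 0.08 in the 4 comparisons, with SEs of 0.08.

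Genes that work with cilia but lie outside the name pattern were tested as lists. The share of all genes that passed in edgeR was 1.66% for diabetes in untreated kidneys and 0.823% in B12-treated kidneys. It was 0.0% for B12 in either class of mice and for the interaction. A single call in a list this short is not read as a result about the list. Of 11 tested regulators of motile cilia formation and 17 dynein arm assembly and docking genes, none passed an adjusted p of 0.05 in any comparison in edgeR. Foxj1, the master regulator of motile cilia, had 39.5, 28.8, 14.7 and 29.8 normalized counts in ND_C, 16.4, 24.8, 27.4 and 13.5 in ND_B12, 12.7, 12.2, 60.4 and 31.8 in D_C and 21.1, 21.8, 21.1 and 17.0 in D_B12. These groups overlap. Of 25 other tested axoneme genes, Ropn1l alone passed, in the comparison given above. Of 46 genes of the primary cilium and of transport along it, all tested, 1 passed, namely Ift56, a subunit of the intraflagellar transport machinery. It had 899, 889, 973 and 872 normalized counts in ND_C and 804, 719, 723 and 746 in D_C, without overlap, and differed by a log2 value of -0.28 (SE 0.06, adjusted p = 0.0408 in edgeR). In B12-treated mice 43 of these 46 genes had a negative fold change for diabetes, with a median of -0.12 against 0.00 over all genes, of which 50.5% had a positive fold change. At an unadjusted p below 0.05 there were 15 of the 46, against 17.0% of all genes, and none passed adjusted in edgeR.

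The markers of a multiciliated cell had low counts, and some were at 0. Of 12 such markers 11 were in the table and 7 passed the count minimum, Sntn and Tmem212 had 0 counts in all libraries, and Tekt1 was above 0 only in D_C replicate 4. The summed normalized count of the list lay between 235 and 298 in ND_C, between 171 and 268 in ND_B12, between 219 and 262 in D_C and between 182 and 231 in D_B12. Of 14 testis germ cell markers 4 passed the minimum, and Prm1 and Odf1 were at 0. Their sum lay between 178 and 283 in ND_C, between 206 and 234 in ND_B12, between 174 and 315 in D_C and between 297 and 363 in D_B12. Of 8 adrenal cortex markers 4 passed, with Cyp11b1 and Cyp11b2 at 0, and the sum lay between 369 and 503 in ND_C, between 452 and 494 in ND_B12, between 467 and 656 in D_C and between 376 and 590 in D_B12. Of 10 epididymis markers 2 passed, Ros1 and Adam7, and 5 were at 0, namely Lcn5, Lcn8, Defb41, Cst11 and Wfdc10. This sum lay between 27.8 and 84.3 in ND_C, between 15.3 and 123 in ND_B12, between 76.4 and 353 in D_C and between 20.9 and 263 in D_B12. Most of it was Ros1, a receptor tyrosine kinase gene picked out after its values were seen. Ros1 had 58.7, 14.9, 34.0 and 35.5 normalized counts in ND_C, 7.6, 58.6, 5.0 and 107.3 in ND_B12, 163.5, 334.5, 65.8 and 265.5 in D_C and 250.8, 6.3, 10.1 and 17.0 in D_B12. It was high in ND_B12 replicate 4 and D_B12 replicate 1, the libraries in which Cfap52 was also highest within those groups. For diabetes in untreated kidneys its log2 value was 2.53 (SE 1.02, adjusted p = 0.195 in edgeR), and its relation to Cfap52 was not tested. All 11 kidney markers were detected, at 979100 to 1250209 summed counts per library.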

How the data were processed

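Reads (paired, 50 bp) from the 16 libraries were aligned by the authors with STAR to GRCm39 with GENCODE vM35 and quantified with StringTie and prepDE. The deposited values are estimated counts per gene and per transcript, already whole numbers. Each column was matched to a library by the library number in its label, and 0 columns were left unmatched. Gene positions, transcript classes and exon lengths came from GENCODE vM39 of the same build.

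Genes with at least 100 counts in all were tested in edgeR 4.0.16 (glmQLFit and glmQLFTest, TMM, 1 mean per group, 12 residual degrees of freedom, two-sided, Benjamini-Hochberg over 25408 genes). Size factors by the median-of-ratios method scaled each library's counts to give normalized counts. Alternatives included DESeq2 1.42.0, other scalings and filters, the label date, a replicate block and each library left out, and, added after seeing the data, D_C replicate 1 and ND_B12 replicate 4 left out together. The edgeR and DESeq2 fits were tested on simulated data.

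The 65 members, their roles, the gene and marker lists and the tests were chosen with earlier results of these data known. Named genes are Cfap52, members with an adjusted p below 0.05, the 2 smallest p in each direction per comparison with a mean of at least 20, the 2 highest levels per role, near-identical copies, Foxj1, and called genes of the other lists. Dnah9, Ros1, the fold changes of Dnah5 and Dnai4, and members named for non-overlapping groups fall outside this rule. The labels call the replicates biological, and p-values weigh differences between groups against the spread between these samples. The common biological coefficient of variation was 0.201. The exact permutation test compares group means.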

Additional observations from a re-analysis of the deposited data

Results flagged for a closer look

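Single libraries stood apart from the other 3 of their group in 4 of the 48 groups examined among the named genes, by a Dixon test at 95%, which chance gives in about 1 of 20 groups. Cfap52 in D_B12 replicate 1 was at 91.3 normalized counts, with the other 3 between 30.3 and 31.7. Spag8 in ND_C replicate 1 was at 65.1, above 49.7 to 51.8. Cfap68 in D_B12 replicate 4 was at 2360, above 2118 to 2155. Dnah8 in ND_C replicate 2 was at 14.9, below 45.3 to 49.1. Whether these departures are technical or biological was not tested.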

How the results depend on the processing

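Of 364 values of named genes under alternatives, 333 kept direction and side of the threshold, 9 gained a call, 21 lost one and 1 turned. The one that turned was Cfap52 for diabetes in B12-treated kidneys, from -0.44 to 0.62 once the label date was a covariate, called in neither. The number of members called for B12 in diabetic kidneys was 0 and became 1 with DESeq2 (2.68% of all genes), and 0 to 1 (0.0 to 0.264%) with single libraries left out. For diabetes in untreated kidneys it was 1 (1.66%), became 3 with DESeq2 (6.31%), 0 with no filter (0.154%) and with the label date (0.00787%), 4 without D_C replicate 1 and ND_B12 replicate 4 (8.21%), and 0 to 3 (0.0 to 6.10%) with single libraries left out. For diabetes in B12-treated kidneys it was 1 (0.823%), became 3 with DESeq2 (4.51%), 4 without those 2 libraries (2.69%), 0 with upper-quartile scaling (0.0708%), no filter (0.0857%), the label date (0.114%), the replicate block (0.0984%) or the compared groups fitted alone (0.752%), and 0 to 1 (0.0 to 1.04%) with single libraries left out. For the interaction it was 0, and 1 with DESeq2 (3.63%). Members past the volcano thresholds numbered 3 for B12 in diabetic kidneys (5.58%), and 2 to 5 with single libraries left out (4.56 to 7.42%). They numbered 5 with DESeq2 (5.35%), upper-quartile scaling (5.56%), the label date (9.30%) or the compared groups alone (5.32%). For B12 in non-diabetic kidneys they numbered 1 (3.19%), 2 with the replicate block (3.10%) and 0 to 4 with single libraries left out (2.22 to 4.25%). For diabetes in untreated kidneys they numbered 4 (7.64%), and 3 to 5 with single libraries left out (6.31 to 10.5%). In B12-treated kidneys they numbered 8 (7.47%), and 5 to 11 with single libraries left out (6.49 to 7.59%). There the label date gave 3 (10.6%) and the replicate block 5 (7.30%). For the interaction they numbered 5 (9.15%), and 2 to 6 with single libraries left out (7.56 to 11.4%). The causes were not tested, and fits with fewer libraries have fewer degrees of freedom. Replicate numbers do not pair the libraries, since same-numbered libraries of different groups had correlations of deviations from -0.183 to 0.168. Outer dynein arm genes had the highest median coefficient of variation within groups of the roles, 0.357.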
